A study of Sus scrofa with 61 samples.

Results

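The citric acid cycle enzymes of fetal pig muscle were followed from day 90 to day 110 of gestation in 4 genotypes. The members were 9 genes chosen by name: CS, IDH2, IDH3A, OGDH, SUCLA2, SDHA, SDHB, FH and MDH2. Every array probe that carries 1 of these symbols was taken, by the name printed in the scanner file in upper case or by the study's own gene lists. Of the 9 genes, 8 had a probe by this rule and 7 had a probe that measures the gene, with 41 of the 42436 probes kept for testing. The 7 measured enzymes were thus 7 of 9128 named genes. No probe carried the symbol OGDH, so that the first subunit of the oxoglutarate dehydrogenase complex was not measured. The only probe named FH carries a RefSeq accession of another gene, so that fumarase was not measured either, and that probe is left out of all counts.

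Gene expression was measured on 1-colour Agilent arrays in total RNA of the longissimus muscle of male fetuses, with 1 array per fetus and 61 fetuses in all. The genotypes were Large White (LW), Meishan (MS), LWMS fetuses carried by MS sows and sired by LW, and MSLW fetuses carried by LW sows and sired by MS. At day 90 each genotype had 8 fetuses. At day 110 there were 9 LW, 7 MS, 8 LWMS and 5 MSLW fetuses. The study took LW and MS as breeds with high and low mortality at birth, and its sows received mixed semen, so that a litter held purebred and crossbred fetuses. The sow of each fetus is not in the labels, so that littermates count as independent in every test here and the p-values can be too small. Litter and age, or litter and the breed of the sow, cannot be told apart here. Between 34346 and 45683 probes per array were well above background (median 41982), and the 41 probes of the enzymes were so on all 61 arrays. None of their spots was saturated.

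The cycle oxidises acetyl groups in the mitochondrial matrix and passes the electrons to the respiratory chain. CS (citrate synthase) joins acetyl-CoA to oxaloacetate and is widely used as a measure of mitochondrial content in muscle. IDH3A is the catalytic subunit of the NAD-dependent isocitrate dehydrogenase, and IDH2 is the NADP-dependent mitochondrial isocitrate dehydrogenase. SUCLA2 is the ADP-forming beta subunit of succinyl-CoA ligase, SDHA and SDHB are the flavoprotein and iron-sulphur subunits of succinate dehydrogenase, which is also complex II of the respiratory chain, and MDH2 (mitochondrial malate dehydrogenase) regenerates oxaloacetate.

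Several probes of a gene read nearly the same stretch of RNA and are not independent measurements. For CS, the enzyme that opens the cycle, 5 of the 8 probes are printed to show this, with capitals at the bases that differ between 2 overlapping probes. Aligned without gaps, the first pair overlaps over 57 bases and differs by A4T and C5A. These 2 differences can also be read as 1 base, a c, left out of the second probe. The second pair overlaps over 58 bases and differs by C6T, C42T and T51C. Positions are counted from 1 at the 5′ end of the first probe of the pair, whose base stands first. The last sequence, with its start listed at 210, is on the array under 2 probe names. The sequences come from the scanner files.
A_72_P072591: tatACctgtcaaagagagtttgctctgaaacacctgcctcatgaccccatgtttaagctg
A_72_P652677: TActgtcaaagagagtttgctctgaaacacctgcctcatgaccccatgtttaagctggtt
A_72_P537441: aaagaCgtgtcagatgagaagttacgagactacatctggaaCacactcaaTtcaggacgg
A_72_P124631: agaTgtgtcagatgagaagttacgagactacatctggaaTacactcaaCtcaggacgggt
A_72_P436629: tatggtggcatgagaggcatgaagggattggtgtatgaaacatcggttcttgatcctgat

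All 7 measured enzymes rose from day 90 to day 110 in all 4 genotypes. Each of the 41 probes was called higher at day 110 in each genotype, at an adjusted p under 1% by limma with Benjamini-Hochberg adjustment over all kept probes. Of all 42436 probes, 21.8% were called higher in LW and 28.6% in MS, and of the crosses 25.1% in LWMS and 20.8% in MSLW. The median change of the 7 main probes (the brightest probe of each gene) on the log2 scale was 1.33 for LW, 1.61 for MS, 1.34 for LWMS and 1.37 for MSLW, against medians between 0.022 and 0.043 over all probes. For each of the 41 probes and in each genotype, every fetus of day 110 lay above every fetus of day 90. How many of all 42436 probes were separated in this way was not counted. Averaged over the genotypes, the main probes rose by 1.12 (SDHA) to 1.79 (IDH2). Between 1.58% (IDH2) and 5.81% (SDHA) of all probes had an average age change at least as large.

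**Figure D1:**
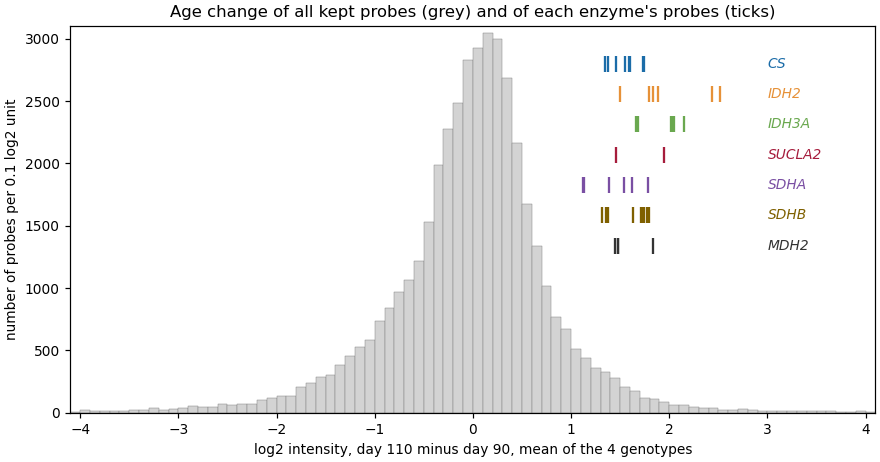
Number of kept probes (grey bars, vertical axis) by their log2 change from day 90 to day 110 averaged over the 4 genotypes (horizontal axis, bins of 0.1), with 1 tick for each probe of each enzyme. The ticks lie between 1.12 and 2.51, to the right of most probes.

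CS, the condensing enzyme, rose in every genotype, and its rise was 1.17 ± 0.099 (SE) in LW and 1.64 ± 0.11 in MS on the log2 scale. The normalized log2 intensity of its main probe in LW fetuses lay between 13.58 and 14.12 at day 90 (median 13.85, n = 8) and between 14.66 and 15.40 at day 110 (median 15.01, n = 9). In MS fetuses it lay between 13.75 and 14.15 at day 90 (median 13.90, n = 8) and between 15.36 and 15.89 at day 110 (median 15.53, n = 7). The purebreds overlapped at day 90, and at day 110 only 1 LW fetus reached the range of MS. The crosses rose by 1.25 ± 0.10 (LWMS) and 1.30 ± 0.12 (MSLW), and the 5 MSLW fetuses of day 110 read 15.50, 15.20, 15.11, 15.59 and 14.92.

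IDH2 had the steepest rise of the main probes in LW, by 1.79 ± 0.090 (SE) on the log2 scale, which is 3.45-fold. LW values lay between 14.86 and 15.28 at day 90 (median 15.19) and between 16.40 and 17.11 at day 110 (median 16.92). MS values lay between 14.85 and 15.27 at day 90 (median 15.13) and between 16.76 and 17.18 at day 110 (median 16.99). The ranges of the 2 purebreds overlapped at each day, and at day 110 LW replicate 3 alone lay below the MS range. The rise was 1.86 ± 0.095 in MS, 1.66 ± 0.092 in LWMS and 1.86 ± 0.11 in MSLW.

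IDH3A, the catalytic subunit of the step that makes NADH from isocitrate, rose by 1.33 ± 0.13 (SE) in LW and 1.97 ± 0.14 in MS. Its main probe lay between 11.82 and 12.74 in LW at day 90 (median 12.54) and between 12.10 and 12.51 in MS (median 12.36). At day 110 the LW fetuses spread from 13.16 to 14.36 (median 13.91), with 3 of 9 below a gap of 0.51, while the 7 MS fetuses lay within 14.23 and 14.39 (median 14.30). The SD between fetuses at day 110 was 0.46 in LW and 0.057 in MS. LWMS rose by 1.77 ± 0.14 and MSLW by 1.57 ± 0.16.

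SUCLA2, which makes succinate and ATP, rose by 1.35 ± 0.11 (SE) in LW and 1.61 ± 0.12 in MS, with 1.50 ± 0.12 in LWMS and 1.37 ± 0.13 in MSLW. At day 90 its main probe lay between 12.26 and 12.74 in LW (median 12.53) and between 12.40 and 13.28 in MS (median 13.11). At day 110 it lay between 13.46 and 14.38 in LW (median 13.84) and between 14.30 and 14.71 in MS (median 14.64). The MS range was thus higher at both days, with an overlap at its low end.

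Both succinate dehydrogenase subunits rose in every genotype. SDHB rose by 1.24 ± 0.076 (SE) in LW and 1.36 ± 0.081 in MS, with 1.34 ± 0.078 in LWMS and 1.33 ± 0.089 in MSLW. Its main probe lay between 14.00 and 14.33 in LW and between 14.12 and 14.58 in MS at day 90, and between 15.04 and 15.82 in LW and 15.60 and 15.97 in MS at day 110. SDHA rose by 1.23 ± 0.11 in LW and 1.04 ± 0.12 in MS, with 0.97 ± 0.12 in LWMS and 1.24 ± 0.13 in MSLW. Over the 6 SDHA probes the rise in MS minus that in LW ran from -0.20 to 0.19 (median 0.014), and none was called. The main SDHA probe lay between 15.41 and 15.83 in LW and between 15.83 and 16.26 in MS at day 90, and between 16.67 and 17.04 in LW and 16.91 and 17.15 in MS at day 110. The 1 MSLW fetus of day 90 at 14.45 stood 1.36 below the next fetus on this probe, and on the other 5 SDHA probes it lay between 0.37 below and 0.13 above the median of its group. Without this fetus the rise of the main probe in MSLW was 1.05.

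MDH2, which closes the cycle, rose by 1.38 ± 0.13 (SE) in LW and 1.58 ± 0.13 in MS, with 1.34 ± 0.13 in LWMS and 1.49 ± 0.15 in MSLW. The main probe lay between 13.41 and 13.73 in LW at day 90 (median 13.64) and between 13.77 and 14.61 in MS (median 14.20). At day 110 it lay between 14.57 and 15.43 in LW (median 14.96) and between 15.47 and 15.98 in MS (median 15.77). MDH2 was the only enzyme whose main probe did not overlap between the purebreds, at either day. The margins were small, with the lowest MS fetus at 13.77 against the highest LW fetus at 13.73 at day 90, and 15.47 against 15.43 at day 110. Of the 41 probes 4 were separated in this way at day 90 and 8 at day 110, among the latter also probes of CS and SUCLA2. The share of all probes was not counted.

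**Figure D2:**
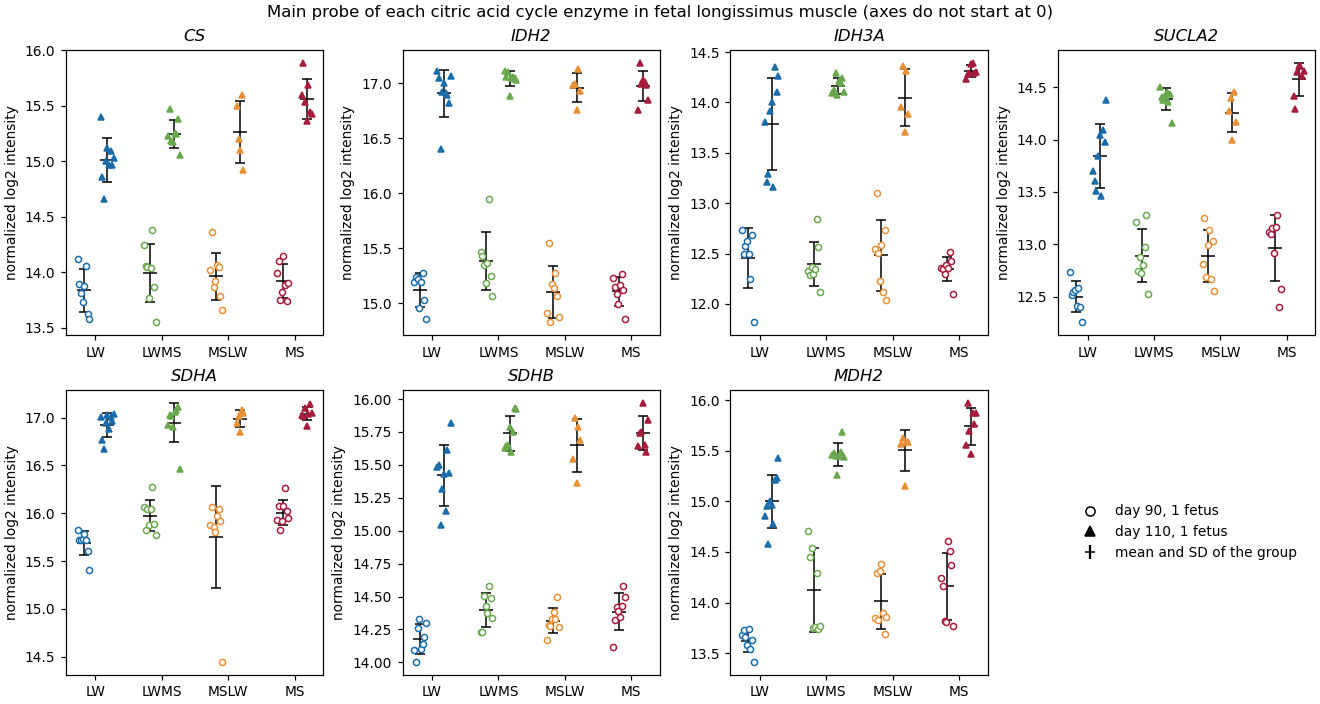
Normalized log2 intensity (vertical axis) of the main probe of each enzyme in each fetus, by genotype (horizontal axis), with open circles for day 90, triangles for day 110 and black bars for the group mean and SD. In all 7 panels the triangles of a genotype lie above its circles, and for MDH2 all MS fetuses lie above all LW fetuses of the same day.

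Probes of 1 gene differed in the size of the rise, and in several genes the dimmer probes rose more. For IDH2 the age change averaged over the genotypes was 1.79 to 1.89 on the 3 probes whose mean level at day 90 was 15.12 to 15.18 on the log2 scale, and 2.43 and 2.51 on 2 probes at 11.99 and 11.45, while the dimmest probe, at 9.96, gave 1.50. The 3 bright IDH2 probes overlap by at least 53 bases and read 1 stretch. For SDHA it was 1.12 and 1.13 on the 2 brightest probes and 1.38 to 1.79 on the other 4. The sizes given for a gene are thus those of its main probe. On the main probes the age change within slides was above 0 in 189 of the 189 combinations of gene, slide and genotype that held both ages, and it ranged from 0.63 to 2.60. The 2.60 was that of SDHA in MSLW on slide 8, which holds the MSLW fetus of day 90 at 14.45.

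**Figure D3:**
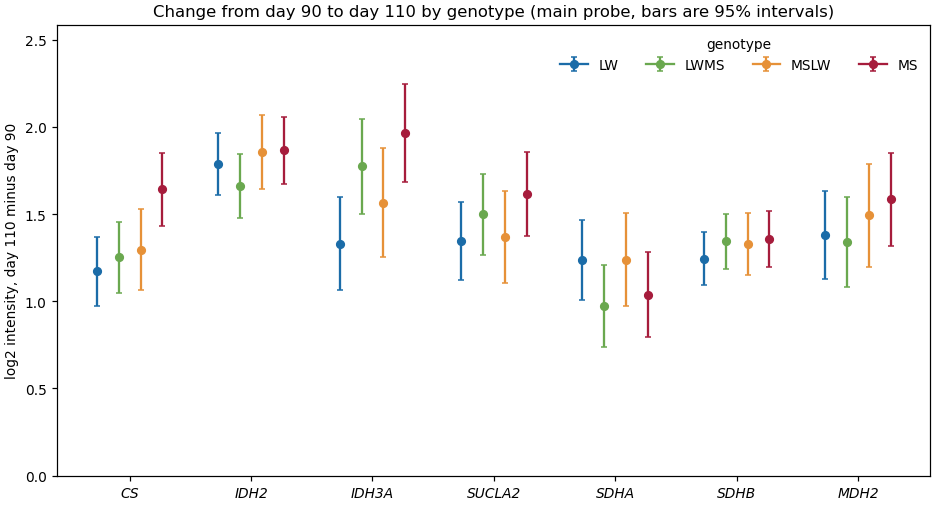
Change of log2 intensity from day 90 to day 110 (vertical axis, from 0) on the main probe of each enzyme, by genotype, with 95% intervals from the limma fit. The lowest bound is 0.74 (SDHA in LWMS), and the intervals of LW and MS do not overlap for CS and IDH3A.

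The rest of the cycle moved in the same direction. Of 9 further enzymes and subunits 8 had a probe (SDHC had none), and all 8 were called higher at day 110 in each of the 4 genotypes. Between 20.8% (MSLW) and 28.6% (MS) of all probes were called higher. IDH3B, a regulatory partner of IDH3A, rose by 1.35 ± 0.097 (SE) in LW and 1.78 ± 0.10 in MS. DLD and DLST, the other subunits of the oxoglutarate dehydrogenase complex, rose by 1.22 ± 0.087 and 1.13 ± 0.064 in LW and by 1.51 ± 0.093 and 1.45 ± 0.068 in MS. The 2 smallest rises were those of SUCLG2, the GTP-forming counterpart of SUCLA2 (0.52 ± 0.074 in LW and 0.59 ± 0.079 in MS), and of SDHD, a membrane anchor of complex II (0.69 ± 0.070 and 0.81 ± 0.074). The cytosolic malate dehydrogenase MDH1 also rose, by 1.58 ± 0.082 in LW and 2.10 ± 0.087 in MS, and the cytosolic aconitase ACO1 by 1.09 ± 0.099 and 0.89 ± 0.11. ME1, the cytosolic malic enzyme, read -0.23 ± 0.17 in LW and 0.51 ± 0.18 in MS and was not called in either.

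Neighbouring pathways were described by the same counts. Of all probes 21.8% (LW), 28.6% (MS), 25.1% (LWMS) and 20.8% (MSLW) were called higher at day 110. All 4 measured genes of the pyruvate dehydrogenase complex and all 17 nuclear respiratory chain subunits were called higher at day 110 in all 4 genotypes, with medians of 1.05 and 1.03 in LW and 1.23 and 1.23 in MS on the log2 scale. Of 11 glycolytic enzymes, 7 were called higher in LW (median 0.38) and 10 in MS (median 0.75). Of 11 genes of feeding and side reactions, 8 were called higher and 1 lower in LW (median 0.68), and 9 higher and 2 lower in MS (median 0.82).

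Markers of other cell types moved with age too, beside 23.5% (LW), 28.1% (MS), 25.7% (LWMS) and 23.8% (MSLW) of all probes called lower at day 110. All 6 fibroblast markers, among them the collagen genes COL1A1 and COL3A1, were called lower at day 110 in all 4 genotypes, with a median of -1.08 in LW and -1.96 in MS. Their summed log2 level fell from a range of 18.62 to 18.99 to a range of 17.13 to 17.84 in LW, and from 18.77 to 18.91 to 16.45 to 16.83 in MS. Of 6 endothelial markers 4 were called lower and 1 higher in both purebreds. Of 8 skeletal muscle fibre markers 3 were called higher in LW (median 0.040) and 4 higher and 1 lower in MS (median 0.20), and their summed log2 level stayed between 20.77 and 21.27 over all fetuses. Fewer cells of a type and less RNA per cell cannot be told apart in whole muscle, and the part of these shifts in the rise of the enzymes was not tested. In LW 3 of 6 macrophage and leukocyte markers, 1 of 4 red cell markers and 2 of 4 satellite cell and myoblast markers were called lower and none higher. In MS these were 2 of 6 and 2 of 4 lower with none higher, and 2 lower and 1 higher of the 4 satellite cell and myoblast markers. Of 6 adipocyte markers 2 were called higher in LW, and 2 higher and 2 lower in MS. Of 6 nerve and Schwann cell markers 2 were called higher and 1 lower in LW, and 1 higher and 1 lower in MS.

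Between the purebreds, few of the enzymes were called different at day 90 and most were higher in MS at day 110. At day 90, 2 of the 7 main probes (SUCLA2 and MDH2) and 11 of the 41 probes were called higher in MS, where 6.23% of all probes were. The 11 probes became 6 with the deposited values, the median intensity or normexp correction, and 3 with scaling to the 75th percentile. At day 110, 5 of the 7 main probes (CS, IDH3A, SUCLA2, SDHB and MDH2) and 33 of the 41 probes were called higher in MS, where 13.7% of all probes were, and none was called lower at either day. Without slide 4 the 5 main probes became 3 and the 33 probes 28, since IDH3A (0.45, adjusted p = 0.0143) and SDHB (0.24, adjusted p = 0.0154) missed the threshold. With scaling to the 75th percentile all 7 main probes were called. The main probes had a median log2 difference (MS minus LW) of 0.21 at day 90 and 0.52 at day 110, against -0.00072 and 0.0079 over all probes. Of all probes 20.9% and 10.5% had a difference at least as large. These medians are those of SDHB at day 90 and IDH3A at day 110. The median of the difference of the age change was 0.20 on the main probes, with 0 called, and 27.9% of all probes reached it.

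**Figure D4:**
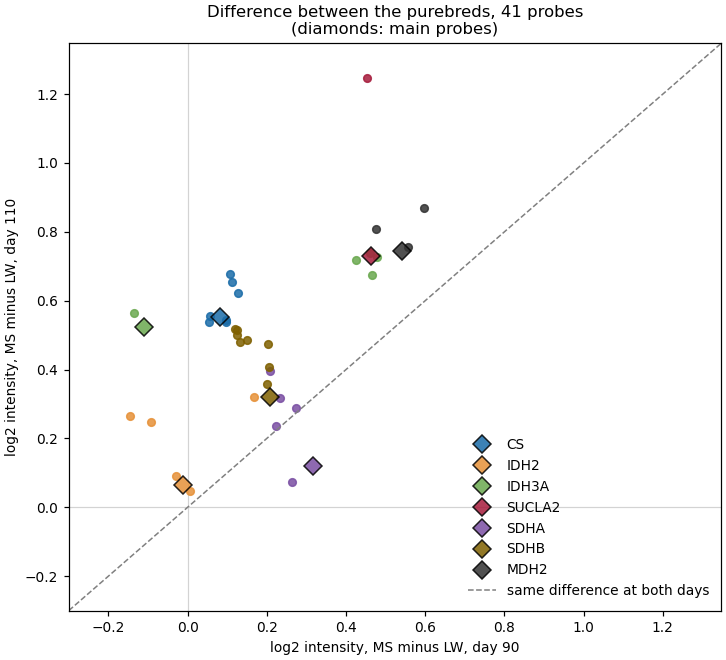
Log2 difference MS minus LW at day 90 (horizontal axis) and at day 110 (vertical axis) for the 41 probes, coloured by gene, with diamonds for main probes and a dashed line where both differences are the same. The 8 CS probes lie between 0.055 and 0.13 at day 90 and between 0.54 and 0.68 at day 110, whereas the 4 MDH2 probes lie between 0.48 and 0.60 at day 90 and between 0.74 and 0.87 at day 110.

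The calls differed between genes, but the genes were not tested against each other. No main probe was called for the difference of the age change between the purebreds. MDH2 was higher in MS at both days, by 0.54 ± 0.13 (SE, adjusted p = 0.00123) at day 90 and 0.74 ± 0.13 (adjusted p = 5.38e-06) at day 110, and all 4 of its probes were called at each day. SUCLA2 was higher in MS by 0.46 ± 0.12 (adjusted p = 0.00203) at day 90 and 0.73 ± 0.12 (adjusted p = 9.24e-07) at day 110, while its second, dimmer probe gave 0.45 (adjusted p = 0.0301) and 1.25 (adjusted p = 3.73e-09). The difference of the age change, MS minus LW, was 0.27 on the main SUCLA2 probe and 0.80 on the dimmer one. Neither was called by limma (lowest adjusted p = 0.0107). Scaling to the 75th percentile took the day-90 call of SUCLA2 just past the threshold (0.44, adjusted p = 0.0101).

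For CS the difference at day 90 was 0.081 ± 0.10 (adjusted p = 0.657), and none of its 8 probes was called. At day 110 it was 0.55 ± 0.10 (adjusted p = 1.59e-05), or 1.47-fold, and all 8 probes were called. The difference of the age change, MS minus LW, was 0.47 ± 0.14 on the main probe, with a 95% interval from 0.18 to 0.76 and an adjusted p of 0.0213, which missed the threshold of 1%. On the other 7 probes it ran from 0.44 to 0.57, and 4 of them were called, where 2.56% of all probes were called higher. The 4 are not separate readings. A_72_P537441 and A_72_P124631 overlap over 58 bases, and A_72_P555890 and A_72_P630718 share most of their sequence. Of these 7 probes, 5 are on the list that the study chose from these fetuses for such a pattern, so that they are not independent evidence of it. The main probe was called with slide as a block (0.41, adjusted p = 0.00368) and without slide 8 (0.51, adjusted p = 0.00954), but not without slide 4, where 1 of the 41 probes was called. The mean of all 8 CS probes, 5 of them on that list, was called as well (0.49, adjusted p = 0.00529). Scaling to the 75th percentile gave 0.76 for the main probe (adjusted p = 0.000853), and it raised the bright probes of the array by a median of 0.29 in the same comparison.

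SDHB was higher in MS at day 110, by 0.32 ± 0.079 (SE, adjusted p = 0.000787), and all 9 of its probes were called. At day 90 its difference was 0.21 ± 0.078 (adjusted p = 0.0499), with no probe called. For SDHA the main probe gave 0.32 ± 0.12 at day 90 (adjusted p = 0.0472) and 0.12 ± 0.12 at day 110 (adjusted p = 0.448), and neither was called. The main SDHA probe passed by limma at day 90 with purebred fetuses only (0.32 ± 0.066, adjusted p = 0.000661) and without slide 8 (0.29, adjusted p = 0.000726). The SE of the main fit pools all 8 groups, among them MSLW at day 90 with its fetus at 14.45. Both of these other fits leave that fetus out. The 6 SDHA probes gave 0.21 to 0.32 at day 90, with 3 called, and 0.074 to 0.40 at day 110, with the 4 dimmer ones called. The mean of all 6 was called at both days (0.25, adjusted p = 0.00661, and 0.24, adjusted p = 0.00590).

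IDH2 showed no difference past the threshold on any of its 6 probes, and the main probe gave -0.013 at day 90 (95% interval -0.20 to 0.17) and 0.064 at day 110 (-0.12 to 0.25). Over the 6 probes the day-110 difference ran from 0.047 to 0.32 (lowest adjusted p = 0.0309 by limma). The largest values, 0.25, 0.26 and 0.32, were those of the dimmer probes. The day-110 value of the main probe depended on the scaling: relative to each array's 75th percentile it was 0.41 (adjusted p = 0.00376), and that of SDHA was 0.47 (adjusted p = 0.00307). The same scaling moved the median of the 3072 kept probes at least as bright as the dimmest main probe from -0.063 to 0.20, and that of all probes from 0.0079 to 0.062. The split of all calls at day 110 moved from 5832 higher and 6457 lower to 7195 higher and 5447 lower.

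The 6 IDH3A probes fell into 2 sets at day 90, noticed after the values were seen and given without a test of the sets. The 4 probes with starts listed between 1601 and 1650 gave 0.42 to 0.48 in favour of MS, with 3 of 4 called, and 2 of them have the same sequence. A_72_P586926 shares 29 bases with those 2, and A_72_P581927 repeats most of their sequence with a base left out. The 4 probes are thus not independent readings. The main probe and the probe with its start listed at 2510, which share 57 bases, gave -0.11 and -0.14, and neither was called. At day 110 all 6 were called, with 0.67 to 0.74 on the 4 probes and 0.52 and 0.56 on the other 2. The mean of the 4 probes in LW fetuses was 9.93 ± 0.34 (SD, n = 8) at day 90 and 11.89 ± 0.50 (n = 9) at day 110, and in MS fetuses 10.39 ± 0.14 (n = 8) and 12.61 ± 0.12 (n = 7). The mean of the other 2 was 12.45 ± 0.30 and 13.78 ± 0.45 in LW and 12.32 ± 0.13 and 14.33 ± 0.054 in MS. The difference of the age change was therefore 0.21 to 0.29 on the 4 probes, none called, and 0.63 (adjusted p = 0.0204) and 0.70 (adjusted p = 0.00894) on the other 2. The main IDH3A probe passed the threshold without slide 8 (0.75). It also did so with scaling to the 75th percentile (0.91), which raised bright probes by a median of 0.29 in this comparison.

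**Figure D5:**
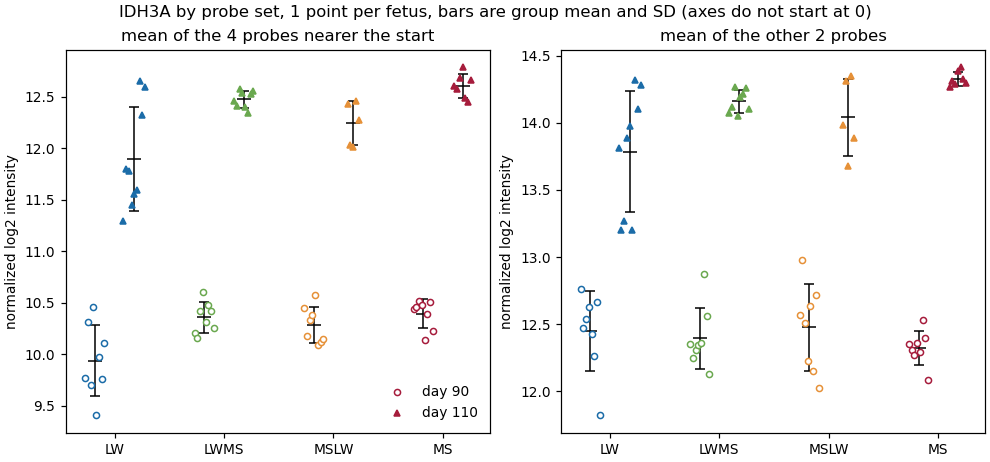
Mean normalized log2 intensity (vertical axes) of the 4 IDH3A probes listed at 1601 to 1650 (left) and of the other 2 probes (right) in each fetus, by genotype (horizontal axis) and day, with group mean and SD. At day 90 LW lies lowest on the left, with a mean of 9.93, and level with the others on the right, with a mean of 12.45.

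Outside the 7 enzymes, 6 of the 8 further cycle genes were called higher in MS at day 110 and none at day 90. Of all probes 13.7% were called higher in MS at day 110 and 6.23% at day 90. The difference of the age change was called for IDH3G, the other regulatory partner of IDH3A (0.73 ± 0.18 (SE), adjusted p = 0.00474), and for MDH1 (0.52 ± 0.12, adjusted p = 0.00205). Of the 6 fibroblast markers 5 were called lower in MS at day 110, with a median of -0.99, where 15.2% of all probes were called lower, and none was called at day 90. Whether this shift has a part in the breed differences of the enzymes at day 110 was not tested.

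The reciprocal crosses, which share their breeds but exchange sow and boar, did not differ past the threshold on any of the 41 probes at either day. Of all probes 0.5% were called at day 90 and 0.912% at day 110. On the main probes MSLW minus LWMS ran from -0.28 (IDH2) to 0.088 (IDH3A) at day 90 and from -0.13 (SUCLA2) to 0.041 (SDHA) at day 110. The IDH2 difference at day 90 had a 95% interval from -0.46 to -0.093 and an adjusted p of 0.190. With 5 MSLW fetuses at day 110, the intervals there reached 0.31 from 0 or further for SDHA, IDH3A, SUCLA2 and MDH2, so that differences of that size lie within the error.

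The crosses lay between the purebreds at day 110 and less regularly at day 90. At day 110 the means of both crosses fell between those of LW and MS for 6 of the 7 main probes, all but IDH2, where 45.1% of all probes did so. At day 90 they did so for 3 of 7 (SUCLA2, SDHA and MDH2), against 37.5% of all probes. For CS at day 110 the means were 15.01 in LW, 15.25 in LWMS, 15.26 in MSLW and 15.56 in MS, and the neighbouring crosses did not differ beyond their SDs of 0.13 and 0.28. The mean of the crosses minus the mean of the purebreds ran from 0.015 to 0.18 at day 90 and from -0.031 to 0.11 at day 110 on the main probes, and no probe was called, where 0.0495% and 0.0778% of all probes were. The 0.015 is that of SDHA and rests on the MSLW fetus of day 90 at 14.45, without which it was 0.11.

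The age change was also set against the breed of boar and of sow. A boar effect on the age change ran from 0.034 (SDHA) to 0.26 (CS) on the main probes and a sow effect from -0.23 (SDHA) to 0.42 (IDH3A), and none of the 41 probes was called for either. Without the MSLW fetus of day 90 at 14.45 on SDHA, its boar effect turned to -0.059 and its sow effect moved to -0.14. Of all probes 0.497% were called for the boar and 2.91% for the sow. For CS the boar effect had a 95% interval from 0.046 to 0.47 (adjusted p = 0.238), and for IDH3A the sow effect had one from 0.14 to 0.70 (adjusted p = 0.0503).

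The spread between fetuses of a group was small beside the age change. The median SD of the 7 main probes was between 0.12 (LWMS, day 110) and 0.25 (LWMS, day 90), and in each group it was below the median SD over all probes except in LWMS at day 90. The 4 fetuses of day 90 on slide 8, 1 of each genotype, lay below their group means by 0.18 to 0.40 on average over the 7 main probes, and the LW fetus was the lowest of its group in 6 of the 7 genes. Of the 3 fetuses of day 110 on that slide, 1 was 0.30 above and 2 were below their group means. On slide 4 all 4 fetuses of day 110 lay below their group means, by 0.18 on average. Without slide 8, or without slide 4, all 41 probes were still called higher at day 110 in every genotype.

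The expression profile that the 7 enzymes shared was also searched for among 9121 other named genes on the array. The measure was the root mean square difference of the 8 group means, each profile centred on its own mean, from the median profile of the 7 main probes. The 10 nearest genes were COQ5, TST, TACO1, DLD, CAB39, ATP5G1, NDUFS1, RANGRF, ACADS and BCS1L, at 0.029 to 0.058 log2 units, where the median gene stood at 0.72. Of the enzymes themselves CS was nearest, at 0.052, and IDH2 farthest, at 0.25. DLD is the lipoamide dehydrogenase that the oxoglutarate and pyruvate dehydrogenase complexes share, and NDUFS1 is a subunit of complex I.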

How the data were processed

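Muscle RNA of 61 fetuses was hybridised to 1-colour Agilent porcine arrays on 8 slides. Per the file headers, the deposited scanner files hold spot intensities extracted with Agilent Feature Extraction 10.10.1.1, and the processed signal in them is background-subtracted. The authors also deposited a table of quantile normalized log2 values, used here only as an alternative. Its columns were matched to samples by name, and 0 columns belonged to other samples.

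Non-control spots flagged as non-uniform were set to missing (4 to 802 per array, median 16), the processed intensity was quantile normalized and log2 transformed, and spots of a probe were averaged. Probes well above background on 80% of the arrays of at least 1 group were kept (42436 of 60305). Means of the 8 groups were fitted with limma 3.58.1 in R 4.3.3, with Benjamini-Hochberg adjustment per comparison and a threshold of 1%. The text names all members, other enzymes of the cycle and their cytosolic counterparts (1 result is not reported here), and the 10 genes nearest to the members' median profile. The main probe of a gene is the kept probe with the highest mean normalized value. The members and gene lists were chosen with earlier results of these data known. The fit was tested on simulated data. Names follow the scanner files, and RefSeq gave the gene of an accession. No array pair held identical values. The genome build is not given in the sources used here, so no coordinates are printed. The number of arrays limits the precision. Replicates were numbered in accession order and pair no samples.

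Alternatives were the median intensity, normexp correction, scaling to the 75th percentile, the deposited log2 values, no filter on dim probes, non-uniform spots kept, slide as a block, the mean of all probes of a gene, purebred fetuses only, and leaving out each of the 5 MSLW fetuses of day 110 in turn. Leaving out slide 8, slide 4 or the MSLW fetus of day 90 on slide 8 was added after the data were seen.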

Additional observations from a re-analysis of the deposited data

Results flagged for a closer look

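Of 56 gene and group pairs tested on the main probes, 7 held a fetus far from the others of its group by Dixon's criterion, which chance meets in about 1 of 20. For IDH2 these were LWMS replicate 6 at day 90, the highest at 15.95 on the log2 scale, LW replicate 3 at day 110, the lowest at 16.40, and LWMS replicate 4 at day 110, the lowest at 16.88. For SUCLA2 and SDHA, LWMS replicate 8 at day 110 was the lowest, at 14.16 and 16.47. On the other SUCLA2 probe that fetus was the highest of its group. On the other SDHA probes it lay 0.057 to 0.33 below the group median. SDHA also had MSLW replicate 8 at day 90, the lowest at 14.45 against 15.80 for the next fetus. For MDH2, MSLW replicate 3 at day 110 was the lowest, at 15.15 against 15.57 for the next. Of the 7 values, 3 came from slide 8 and 3 from slide 4.

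On 7 probes limma's test of the difference found unequal age changes in the purebreds. For CS the difference, MS minus LW, was 0.48 on A_72_P555890 (adjusted p = 0.00725), 0.50 on A_72_P630718 (adjusted p = 0.00400), 0.49 on A_72_P537441 (adjusted p = 0.00187) and 0.44 on A_72_P124631 (adjusted p = 0.00554). These CS probes overlap in pairs and are not independent. For IDH3A it was 0.70 on A_72_P498784 (adjusted p = 0.00894). Among the other genes it was 0.73 for IDH3G (adjusted p = 0.00474) and 0.52 for MDH1 (adjusted p = 0.00205).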

How the results depend on the processing

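The counts of 7 enzymes and 41 probes higher at day 110 were the same in each genotype under every alternative. The 11 probes higher in MS at day 90 became 6 with the median intensity, 6 with normexp correction, 6 with the deposited values, 3 with scaling to the 75th percentile and 7 with purebred fetuses only. The 2 enzymes became 1 with that scaling, and ran from 1 to 3 over all alternatives. For the difference of the age change, 0 enzymes became 2 with that scaling, 1 with slide as a block, 1 with the mean of all probes and 2 without slide 8. The 5 probes became 11 with that scaling, 3 without a filter, 3 with non-uniform spots kept, 8 with the block, 3 with purebreds only, 10 without slide 8 and 1 without slide 4. The 5 enzymes higher in MS at day 110 became 3 without slide 4 and 7 with scaling to the 75th percentile, which added IDH2 and SDHA. The 33 probes ran from 28 to 40 over all alternatives. For the breed of the sow, 0 probes became 1 with the median intensity, 1 with normexp, 1 with the deposited values and 1 without MSLW replicate 1 of day 110 (0 to 1 over the 5 fetuses of that group left out in turn). For the breed of the boar, 0 became 2 with the scaling. Values that changed sign were SDHA in the difference of the age change with the scaling (0.21), and, at day 90, IDH2 with non-uniform spots kept (0.013) and IDH3A as the mean of all probes (0.26), and IDH2 at day 110 without slide 4 (-0.0079). The boar effect of SDHA also changed sign, to -0.059, without the MSLW fetus of day 90 on slide 8. The scaling moved the calls for the difference of the age change from 1085 higher and 1439 lower to 2013 and 1149, and those for age in MS from 12137 and 11904 to 13930 and 10240. The causes were not tested. No paired analysis was possible because replicate numbers were given in accession order and mark no shared sow, while slide, which holds 1 fetus of most groups, was fitted as a block. Littermates could not be modelled, and 5 MSLW fetuses at day 110 give that group the widest errors.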

Other observations

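MDH2 at day 90 split the LWMS fetuses into 4 low and 4 high ones. On the main probe the low fetuses reached 13.76 and the high ones began at 14.30, a gap of 0.53 on the log2 scale. The same 4 fetuses were high on all 4 MDH2 probes, which overlap in part, with gaps of 0.35 to 0.53. Gaps of 0.40 in MSLW and 0.35 in MS stood beside 0.12 in LW on the main probe at day 90, but in MS and MSLW the widest gap parted the fetuses differently on the other probes. This was noticed after the values were seen, and no test was made.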
